A study of Mus musculus with 47 samples.

Results

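Transcript levels across the day were measured by RNA sequencing in the duodenum of conventionally raised (convR) mice, in 12 of the 47 libraries of the study. The 12 libraries were chosen by their labels alone as all those of convR duodenum. They come from male C57BL/6j mice of 15-16 weeks with a normal gut flora, fed ad libitum, and 2 libraries were made at each of zeitgeber times (ZT, in hours, with lights on at ZT0) 2, 6, 10, 14, 18 and 22. The groups set beside them are 12 libraries of duodenum from germ-free (GF) males, raised without microorganisms, and 12 of ileum from convR males, of the same strain, age and times. The labels do not say whether each library is a separate animal, so p-values measure the spread between these samples, which may be technical. ZT12 to ZT24 is called dark, which takes lights off at ZT12, a schedule the labels do not state.

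The duodenum is the stretch of small intestine next to the stomach, where enterocytes take up sugars, peptides, fat and iron and make chylomicrons. Its cells hold a circadian clock, a loop in which the ARNTL and CLOCK proteins switch on their own repressors of the PER, CRY and NR1D families. Gut transcripts can also follow feeding, body temperature and adrenal glucocorticoids, and mice eat mostly in the dark. In bulk tissue, fewer cells of a type and less RNA per cell cannot be told apart.

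Total counts ran between 26.0 and 41.1 M a library, with a median of 34.3 M, and each level is in CPM, the count divided by its library total and put on a common scale, which compares a gene with itself across libraries and not with other genes. All 15 duodenal enterocyte markers were detected, with a summed level of 22020 CPM in ZT6 replicate 1 and 40486 to 63245 CPM in the other libraries. ZT6 replicate 1 also had the largest scaling factor, 1.21 against 0.940 to 1.06, and the highest smooth muscle sum, 2231 CPM. ZT6 replicate 2 had an enterocyte sum of 41734 CPM. Endothelium and fibroblast markers summed to 1111 and 922 CPM in the ZT6 libraries and to 645 to 831 CPM elsewhere. Whether tissue make-up sets the levels seen at ZT6 was not tested. Pancreas acinar markers, all 14 detected, summed to between 22.1 and 4221 CPM, at 586 CPM or more in both ZT2 libraries and in replicate 2 of ZT6, ZT14, ZT18 and ZT22 and at 48.2 CPM or less in the others. Stomach and Brunner gland markers, 11 genes with Atp4b at 0, summed to 16427 CPM in ZT14 replicate 1, 417 CPM in ZT18 replicate 2 and 3.75 to 19.96 CPM elsewhere. Their part in the results was not tested beyond leaving libraries out. Results are also given without 4 libraries that stand apart, ZT6 replicate 1, both of ZT14 and ZT22 replicate 2, which leaves no library at ZT14.

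A cosine of 24 h was fitted to the 12 libraries with edgeR's quasi-likelihood test, and 6 of 18871 genes passed at a Benjamini-Hochberg adjusted p under 0.05, 0.0318% of those tested. All 6 reached their fitted peak in the dark, as did 50.6% of all genes tested. The 5 described here had peak-to-trough folds of 2.16 to 3.94. Cry2 belongs to the clock. Outside it stood Arsg, a lysosomal sulfatase, Bok, a member of the BCL-2 family of cell death proteins, Ces1d, a carboxylesterase that cleaves esters of lipids and drugs, and Aldh18a1, which makes the precursor of proline and ornithine from glutamate. The plot of these 5 genes shows every library.

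**Figure D1:**
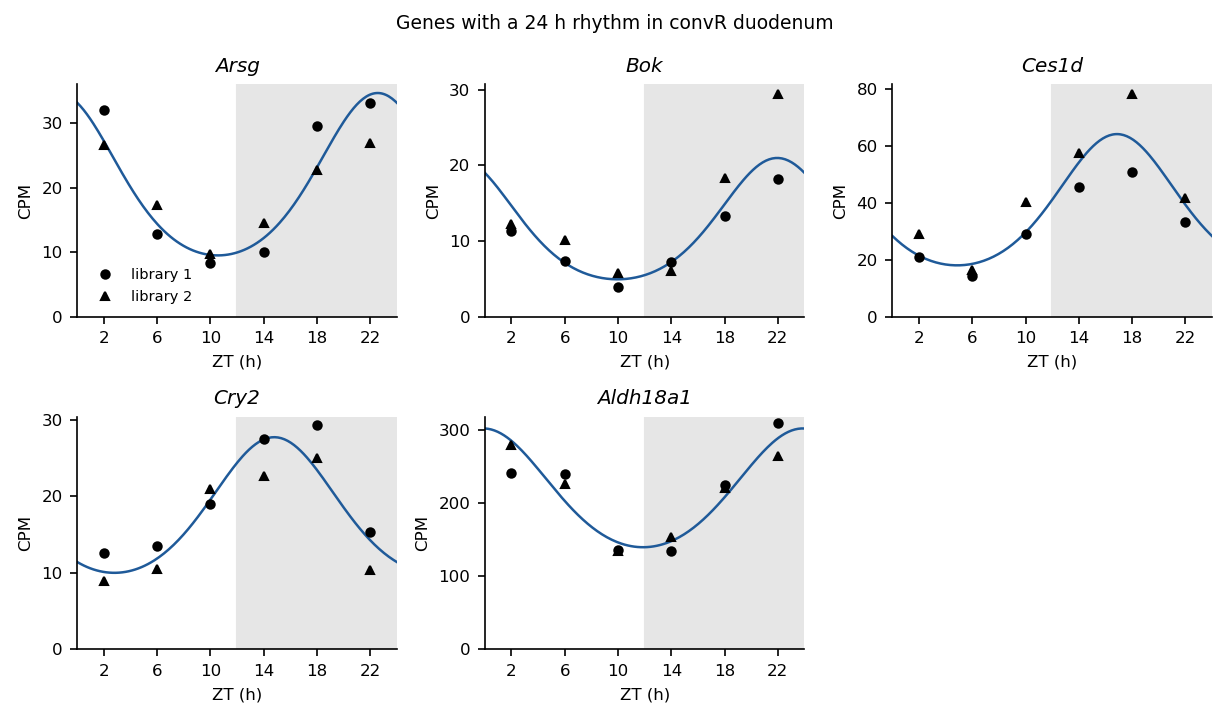
Level in CPM against ZT in hours for 5 genes with an adjusted p under 0.05 in the 24 h cosine fit, with circles and triangles for replicates 1 and 2, the line for the cosine fitted on the log2 scale, and grey for ZT12 to ZT24. Ces1d is highest at ZT18, Cry2 at ZT14 and ZT18, and Arsg, Bok and Aldh18a1 are lowest at ZT10 and ZT14.

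Arsg (chr11:109473374-109573330, GRCm38, plus strand) measured 32.0 and 26.7 CPM at ZT2, 12.8 and 17.3 at ZT6, 8.27 and 9.81 at ZT10, 10.04 and 14.5 at ZT14, 29.6 and 22.7 at ZT18, and 33.0 and 27.0 at ZT22. Every library of ZT18, ZT22 and ZT2 was above every library of the other times. The fitted peak was at ZT22.6 ± 0.43 h with a log2 peak-to-trough of 1.81 ± 0.20 (SE), and the adjusted p was 0.00983. Arsg overlaps Slc16a6 on the opposite strand, whose own fit peaked at ZT20.8, and the strand setting of the counting is not given in the sources used here. Its call was lost without ZT10 replicate 1, without ZT22 replicate 1 and without the 4 libraries that stand apart, with an adjusted p of at most 0.0914.

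Bok (chr1:93685660-93695764, plus strand) measured 11.3 and 12.2 CPM at ZT2, 7.32 and 10.2 at ZT6, 3.94 and 5.76 at ZT10, 7.25 and 6.07 at ZT14, 13.4 and 18.3 at ZT18, and 18.2 and 29.4 at ZT22. Its libraries at ZT18 and ZT22 lay above all others. The fitted peak was at ZT22.0 ± 0.52 h, with a log2 peak-to-trough of 1.98 ± 0.27 and an adjusted p of 0.0320. Bok was kept in 3 of the 12 fits that each left out 1 library, and its adjusted p reached 0.232 over all alternatives while its peak stayed between ZT21.6 and ZT22.2.

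Ces1d (chr8:93166068-93197838, minus strand) was lowest at ZT6, with 14.5 and 16.4 CPM, and highest at ZT18, with 51.0 and 78.4 CPM. It measured 21.04 and 29.2 CPM at ZT2, 29.0 and 40.3 at ZT10, 45.7 and 57.4 at ZT14, and 33.3 and 41.7 at ZT22. The fitted peak was at ZT16.9 ± 0.53 h, with a log2 peak-to-trough of 1.80 ± 0.25 and an adjusted p of 0.0461. Its call was kept in 2 of the 12 fits without 1 library, with adjusted p up to 0.233 over all alternatives. Reads of the neighbouring carboxylesterase genes, which are close in sequence, could be shared with it.

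Aldh18a1 (chr19:40550257-40588463, minus strand) measured 241 and 279 CPM at ZT2, 240 and 226 at ZT6, 136 and 134 at ZT10, 134 and 154 at ZT14, 225 and 221 at ZT18, and 309 and 264 at ZT22. The 4 libraries of ZT10 and ZT14 lay below all 8 others, and the other times overlapped. The fitted peak was at ZT23.9 ± 0.45 h, with a log2 peak-to-trough of 1.11 ± 0.13 and an adjusted p of 0.0461, and the call was kept in 4 of the 12 fits without 1 library. It overlaps the predicted gene Gm15801 on its own strand. Its promoter, shown because it was the only promoter with a canonical E-box among the 4 of the 6 genes that have a sequence in the table, holds CACGTG, the letters bound by clock transcription factors, 59 to 54 bases before the start. The 250 bases before the RefSeq start (GRCm38.p6, chr19:40588464-40588713, minus strand) are printed with the E-box in capitals.
Aldh18a1: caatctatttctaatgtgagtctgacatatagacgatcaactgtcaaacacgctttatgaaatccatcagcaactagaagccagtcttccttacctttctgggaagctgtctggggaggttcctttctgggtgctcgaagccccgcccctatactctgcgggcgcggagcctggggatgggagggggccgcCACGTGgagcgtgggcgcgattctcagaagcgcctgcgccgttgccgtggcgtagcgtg

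The next 8 genes by p outside the clock had adjusted p of 0.0717 to 0.0857 and did not pass. They were Siae, a sialic acid esterase, Ccne1, the cyclin of S-phase entry, Slc17a4, an anion transporter of the enterocyte, Itpr1, a calcium channel of the endoplasmic reticulum, Fmo2, a flavin monooxygenase, Rev1, a DNA polymerase that copies past lesions, Grb7, a signalling adaptor, and Cnnm2, a membrane protein of magnesium handling. Their fitted peaks fell into 3 stretches of the dark, ZT12.8 for Ccne1 and ZT14.2 for Rev1, ZT16.2 for Fmo2, and ZT22.0 to ZT24.0 for Grb7, Itpr1, Siae, Cnnm2 and Slc17a4. Slc17a4 had the largest fold of the 8, 4.73, with 113 and 72.0 CPM at ZT22 against 29.2 and 15.9 CPM at ZT10. At an adjusted p under 0.1 there were 46 genes, 0.244% of those tested.

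The count of 6 moved with single libraries. It was 1 without ZT10 replicate 1 or without ZT22 replicate 1, 2 without any 1 library of ZT14 or ZT18, 3 without ZT10 replicate 2, 10 without ZT22 replicate 2 and 19 without ZT6 replicate 2. It was 1 without the 4 libraries that stand apart, and Arsg was kept in 19 of 22 alternatives. DESeq2 called 451 genes (2.39%) with the same cosine, 280 with a peak in the dark and 171 in the light, the 6 among them.

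At an unadjusted p under 0.05, 1990 genes had a 24 h cosine, 10.5% of those tested. Of these, 1077 (5.71% of all tested) peaked in the dark and 913 (4.84%) in the light. By 4 h window of the peak, ZT0 to ZT4 held 315 genes (1.67%), ZT4 to ZT8 238 (1.26%), ZT8 to ZT12 360 (1.91%), ZT12 to ZT16 450 (2.38%), ZT16 to ZT20 207 (1.1%) and ZT20 to ZT24 420 (2.23%). Between ZT12 and ZT15 alone there were 387 (2.05%). The median peak-to-trough fold was 1.47 in these genes and 1.19 in all genes tested. The following gene groups are described by their members at this threshold beside the 10.5% of all genes, and 3 of their members passed the adjusted threshold by the cosine, Cry2 and Aldh18a1 among them.

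**Figure D2:**
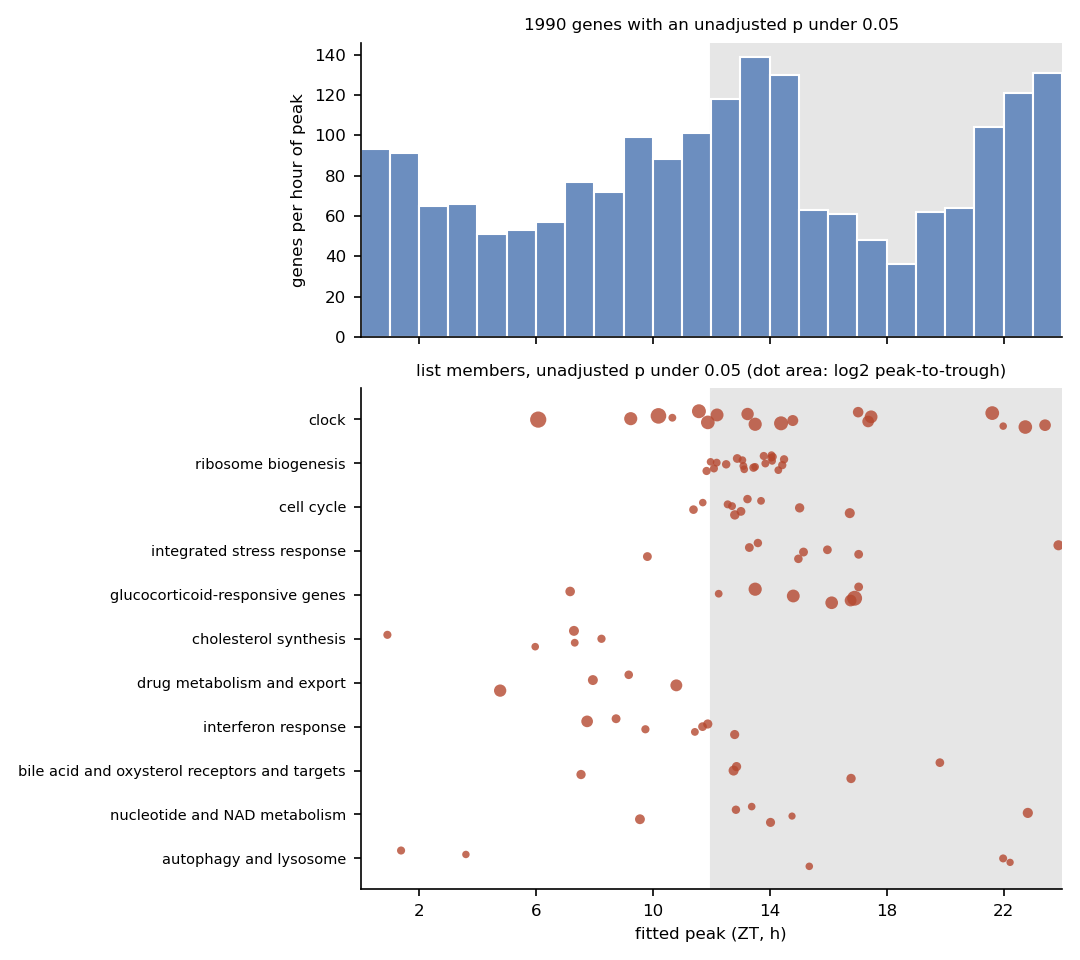
Upper panel, number of genes per hour of fitted peak (ZT in hours) among the 1990 genes with an unadjusted p under 0.05, with grey for ZT12 to ZT24. Lower panel, fitted peak of each such member of 11 gene lists, with dot area growing with the log2 peak-to-trough: the 20 ribosome biogenesis genes lie between ZT11.8 and ZT14.5, and the 5 cholesterol synthesis genes in the light.

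Genes of ribosome assembly formed the tightest group around lights off. Of 28 tested, 20 (71.4%) had an unadjusted p under 0.05, all with a peak between ZT11.8 and ZT14.5 and folds of 1.29 to 1.62. Gnl3, a nucleolar GTPase of the large subunit, measured 32.1 and 29.5 CPM at ZT14 and 17.7 and 18.4 CPM at ZT22 (peak ZT12.9 ± 0.58 h, log2 peak-to-trough 0.70 ± 0.11, unadjusted p = 0.000194, adjusted p = 0.0937). Ddx21, a nucleolar RNA helicase, measured 99.3 and 98.0 CPM at ZT14, against 65.6 and 74.5 CPM at ZT2. Nolc1, a chaperone of nucleolar particles, Wdr43, of the small-subunit processome, Polr1a, the largest subunit of RNA polymerase I, and Ncl, nucleolin, peaked at ZT13.4, ZT12.2, ZT14.1 and ZT11.8. The ribosomal proteins themselves, 28 genes, had 0 members at this threshold and a median log2 peak-to-trough of 0.11 against 0.25 in all genes tested. With scaling by library size alone the count of 20 was 9, while leaving out 1 library gave 16 to 21.

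Among the genes of the cell cycle, 10 of 28 had an unadjusted p under 0.05, with peaks between ZT11.4 and ZT16.7. They were the cyclin genes Ccne1 and Ccne2, Ccnd1 and Ccnd2, the replication licensing factors Mcm3, Mcm4, Mcm6 and Cdc6, Rrm2, a subunit of the enzyme that makes deoxynucleotides, and Wee1, the kinase that holds mitosis back. Ccne1 measured 6.15 and 6.82 CPM at ZT14 and 6.80 and 6.26 CPM at ZT10, against 3.40 and 3.27 CPM at ZT2. By the test of 6 times described below, 15 of 28 had an unadjusted p under 0.05, of which 8 were among these 10. The other 7, Cdk1, Cdc20, Aurka, Aurkb, Plk1, Bub1 and Bub1b, all act in mitosis. Bub1, a kinase of the spindle checkpoint, had 27.4 and 23.0 CPM at ZT18 and 15.0 to 21.6 CPM elsewhere, and Plk1, a mitotic kinase, had 24.8 and 19.7 CPM at ZT18 beside 24.0 and 18.1 CPM at ZT6, so their times overlapped in part. Without the 4 libraries that stand apart the count of 10 was 20. Markers of stem and progenitor cells had 0 of 14 at this threshold.

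The integrated stress response, a programme for amino acid shortage run by ATF4, had 8 of 18 members at an unadjusted p under 0.05. Asns, asparagine synthetase, measured 36.7 and 36.9 CPM at ZT14 against 21.9 and 25.2 CPM at ZT2 (peak ZT15.0 ± 0.79 h, log2 peak-to-trough 0.64 ± 0.13). Psat1 and Phgdh, of serine synthesis, Mthfd2, of mitochondrial folate, and Atf5 peaked at ZT15.2, ZT16.0, ZT13.3 and ZT13.6, and Ddit4, an inhibitor of mTORC1, at ZT17.0. Aldh18a1, at ZT23.9, and Chac1, at ZT9.81, lay outside this stretch. Of 23 nucleotide and NAD genes, 6 were at this threshold, and 11 without ZT6 replicate 1. Among the 6, Ppat, the committed enzyme of purine synthesis, Gart, also of purine synthesis, Nampt, the main NAD salvage enzyme, and Uck2, a uridine and cytidine kinase, peaked at ZT12.8, ZT13.4, ZT14.0 and ZT14.8, while Nmrk1, a nicotinamide riboside kinase, peaked at ZT9.56 and Pnp, of purine salvage, at ZT22.8.

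Of 16 genes that respond to glucocorticoids, 8, the clock gene Per1 included, had an unadjusted p under 0.05, and 7 of these peaked between ZT12.3 and ZT17.0. Sgk1, a kinase of sodium uptake, measured 343 and 475 CPM at ZT14, against 15.0 and 37.0 CPM at ZT6, with a fold of 8.57. Zbtb16, a transcription factor, measured 16.9 and 10.6 CPM at ZT14 and between 1.27 and 6.79 CPM elsewhere. Fkbp5, a co-chaperone that dampens the glucocorticoid receptor, is described with the test of 6 times, which it passed. Nfkbia, the inhibitor of NF-kappaB, peaked earlier, at ZT7.17.

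Of the nutrient uptake lists, peptide and amino acid uptake had 0 of 18 members at an unadjusted p under 0.05, sugar uptake and digestion 3 of 16, and fat absorption and lipoproteins 3 of 25, beside the 10.5% of all genes. The sugar count was 0 without ZT10 replicate 2 and 7 without the 4 libraries that stand apart, and the fat count was 7 without ZT6 replicate 1, 8 with scaling by library size alone and 1 without the 4 libraries. Oxidative phosphorylation had 0 of 24. In the oxysterol and bile acid list, 5 of 15 were at this threshold, among them Mylip, which marks the LDL receptor for breakdown, at ZT12.8, Abcg1, a sterol exporter, at ZT12.9, and Srebf1, the driver of fatty acid synthesis, at ZT19.8. Aqp8, a water channel, had a fold of 10.8 with a peak at ZT0.391, with 11.4 and 18.7 CPM at ZT2 and 0.941 and 0.859 CPM at ZT10 (unadjusted p = 0.00580, adjusted p = 0.260). In ZT6 replicate 1, whose enterocyte sum was lowest, the mean log2 level of the fat and sugar lists was also lowest, -0.92 and -0.80 from each list's mean. Goblet and tuft genes had 0 of 11 and 0 of 8, with 3 goblet genes by DESeq2 and 2 without ZT14 replicate 2. MHC class II genes had 0 of 10, but 5 without ZT6 replicate 2, 5 with the replicate block and 3 by DESeq2.

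A cosine of 24 h cannot follow a sharp peak or a pattern with more than 1 rise a day, so the 6 times were also compared as 6 unordered groups, a test added after the data were seen. By this test 31 of 18871 genes passed (0.164%), 8 of them in the clock and 23 outside, and 3 of the 31 were also called by the cosine, Arsg and Bok among them. With 12 h terms added to the cosine, 53 genes (0.281%) passed for the 24 h terms, including all 6. The 12 h terms themselves passed in 0 genes (0.0%) with edgeR, with 1028 (5.45%) at an unadjusted p under 0.05. The count of 31 was 9 without ZT10 replicate 1, 16 without replicate 1 of ZT2 or of ZT18 or replicate 2 of ZT22, 19 without ZT6 replicate 1 or ZT10 replicate 2, 20 without ZT18 replicate 2, and 135 without ZT14 replicate 2. Genes named in the text for an unadjusted p, for this test or for the 12 h terms were chosen after their values were seen.

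**Figure D3:**
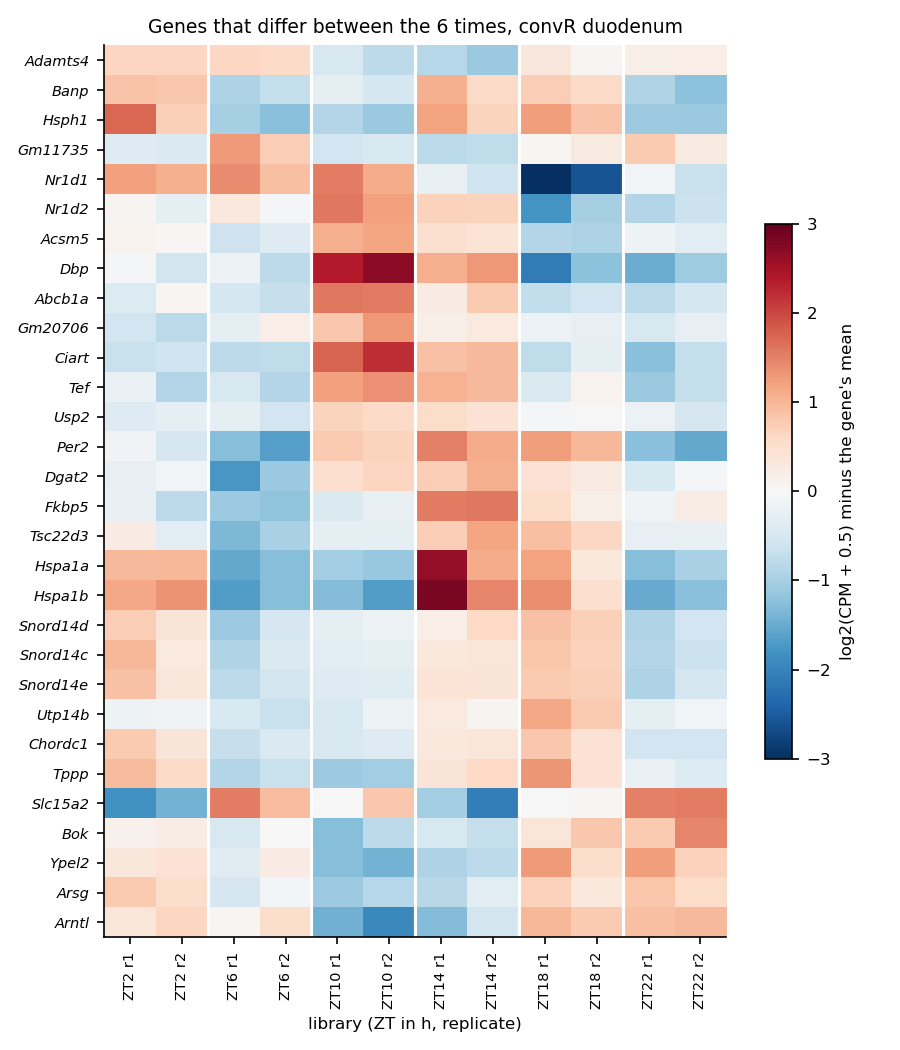
Colour gives log2 of CPM plus 0.5 minus the gene's mean over the 12 libraries, for 30 genes (rows, ordered by the time of the highest mean and then by fitted peak) that passed the test of 6 times, in each library (columns, by ZT in hours and replicate). Red is above and blue below the gene's mean. Nr1d1 and Dbp are far below their mean at ZT18, and the heat shock genes Hspa1a, Hspa1b and Hsph1 are high at ZT2, ZT14 and ZT18.

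Of these 31 genes, a first set was high around lights off. Fkbp5 (chr17:28399094-28517527, minus strand) measured 22.2 and 14.9 CPM at ZT2, 12.0 and 11.1 at ZT6, 19.3 and 22.4 at ZT10, 77.9 and 78.7 at ZT14, 38.5 and 29.7 at ZT18, and 24.3 and 30.4 at ZT22. The 2 libraries of ZT14 stood clear of all others (adjusted p = 0.00416), and the call was kept in 18 of 19 alternatives. It was lost only without the 4 libraries, a setting that holds no library of ZT14 and so cannot show this peak. Tsc22d3, a mediator of glucocorticoid action on immune cells, had 154 and 207 CPM at ZT14 and 172 and 142 CPM at ZT18, against 35.5 and 46.7 CPM at ZT6 (adjusted p = 0.0278, kept in 11 of 19 alternatives). Dgat2, which makes the triglyceride packed into chylomicrons, had 590 and 762 CPM at ZT14 and 105 and 165 CPM at ZT6, with every library of ZT10 to ZT18 above every library of the other times (adjusted p = 0.0433), a call kept in 8 of 19 alternatives and in 2 of the 12 that left out 1 library.

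A further set was highest at ZT10, the last light-phase time. Abcb1a (chr5:8660077-8748575, plus strand), the P-glycoprotein pump that returns drugs and bile components to the gut lumen, had 1119 and 1105 CPM at ZT10, 448 and 646 at ZT14, and 215 to 389 CPM at the other times (adjusted p = 0.00859). That call was lost without either ZT10 library, with an adjusted p of at most 0.0679 over the alternatives. Acsm5 (chr7:119519463-119545551, plus strand), an acyl-CoA synthetase of medium-chain fatty acids, had 11.9 and 12.9 CPM at ZT10, 7.71 and 7.23 at ZT14, 5.81 and 5.49 at ZT2, 4.804 and 4.10 at ZT22, 3.34 and 3.96 at ZT6 and 2.69 and 2.60 at ZT18, and was called in all 19 alternatives. Usp2, a deubiquitinase, was high at ZT10 and ZT14, with 57.0 to 67.8 CPM against 28.2 to 42.3 CPM elsewhere, and was kept in 7 of 19. The 250 bases before the RefSeq start of Acsm5 (GRCm38.p6, chr7:119526015-119526264, plus strand), shown because it was called in every alternative and holds an E-box, are printed with that E-box, 132 to 127 bases before the start, in capitals, and the GENCODE model of the gene begins further upstream.
Acsm5: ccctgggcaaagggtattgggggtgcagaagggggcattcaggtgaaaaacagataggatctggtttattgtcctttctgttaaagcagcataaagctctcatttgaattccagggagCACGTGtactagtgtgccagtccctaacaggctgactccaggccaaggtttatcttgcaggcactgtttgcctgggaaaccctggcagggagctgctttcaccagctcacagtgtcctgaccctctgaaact
CACGTG lay in the 250 bases before the start of 6 of the 21 genes with a promoter sequence that the test of 6 times called (28.6%). It lay in 5 of 16 clock genes and in 1137 of 12219 genes tested (9.31%). The 31 genes called by that test include 8 of the clock list, so these sets overlap, and the share outside the clock is not given here. A match describes these letters and is not a binding site.

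In drug metabolism and export, 4 of 33 members had an unadjusted p under 0.05 by the cosine and 11 of 33 by the test of 6 times, for which the background is 9.47%, a count that was 6 without ZT10 replicate 2, 18 with DESeq2 and 22 with the replicate block. Abcc2, which exports conjugates into the lumen, had 857 and 1125 CPM at ZT10 and 212 to 480 CPM elsewhere (adjusted p = 0.0549). Of the sugar list, 6 of 16 were at this threshold by the test of 6 times. Slc2a5, the fructose transporter, had 214 and 283 CPM at ZT10, against 67.3 to 166 CPM elsewhere (adjusted p = 0.146). Slc5a1, the sodium-glucose transporter SGLT1, had 5856 and 3843 CPM at ZT10, which overlapped the 2991 and 4036 CPM of ZT14. Slc15a2, a peptide transporter that passed the adjusted threshold in 5 of 19 alternatives, had a different shape, with 12.1 and 7.70 CPM at ZT6, 11.7 and 12.0 CPM at ZT22 and 0.726 and 1.11 CPM at ZT2 (adjusted p = 0.0449).

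Heat shock genes were high at ZT2 and again at ZT14 and ZT18. Of 22 chaperones and cochaperones, 17 (77.3%) had an unadjusted p under 0.05 by the test of 6 times, beside 9.47% of all genes, whereas 2 of 22 did by the cosine, and Hspa1a, Hspa1b, Hsph1 and Chordc1 passed the adjusted threshold. Hsph1 (chr5:149614287-149636376, minus strand), a nucleotide exchange factor of HSP70, measured 220 and 108 CPM at ZT2, 32.8 and 27.5 at ZT6, 35.4 and 30.3 at ZT10, 154 and 105 at ZT14, 159 and 119 at ZT18, and 30.7 and 30.0 at ZT22 (adjusted p = 0.0193, kept in 12 of 19 alternatives). Every library of ZT2, ZT14 and ZT18 was above every library of ZT6, ZT10 and ZT22. The mean log2 level of the list, relative to its daily mean, was 0.34 at ZT2, -0.39 at ZT6, -0.40 at ZT10, 0.32 at ZT14, 0.56 at ZT18 and -0.43 at ZT22. The count of 17 ran between 14 and 19 over the alternatives tried, and the 2 by the cosine was 8 without ZT22 replicate 1 and 0 without ZT6 replicate 2.

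Hspa1a and Hspa1b, the inducible HSP70 genes, are near-identical copies whose reads can be shared, and they had 22.0 and 50.2 CPM in ZT14 replicate 1 with 7.26 and 19.1 CPM in replicate 2. Hspa8, the HSC70 gene, and Hsp90aa1 followed at smaller size. Hspa8 had 1666 and 1142 CPM at ZT2 and 474 and 676 CPM at ZT6, and Hsp90aa1 had 563 and 443 CPM at ZT18 and 144 and 178 CPM at ZT22. Snord14c, Snord14d and Snord14e, small nucleolar RNAs within introns of Hspa8, also passed, and their counts cannot be separated from reads of the host transcript. Banp, a nuclear matrix protein, had the same shape, with 21.5 to 30.6 CPM in the 6 libraries of ZT2, ZT14 and ZT18 and 5.83 to 11.6 CPM in the other 6 (adjusted p = 0.00465), and was called in all 19 alternatives, though Gm20388 overlaps it on its strand. Of the 2 cold-inducible RNA-binding genes, Cirbp had 8.53 and 15.3 CPM at ZT2 and 8.39 and 9.17 CPM at ZT18, against 26.0 and 23.7 CPM at ZT6 and 16.1 and 17.2 CPM at ZT14, where Hsph1 was also high (6 times, unadjusted p = 0.000323, adjusted p = 0.0925), and Rbm3 had a cosine peak at ZT11.8 with a fold of 2.01.

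The heat shock element, 3 alternating TTC and GAA blocks with 2 bases between them, searched on both strands, lay in 2 of 18 promoters of the heat shock list and in 0.458% of the 12219. Hspe1, the mitochondrial cochaperonin (104 to 109 CPM at ZT18, 58.0 and 68.2 at ZT10), is shown as it holds the element. Its 2 overlapping matches, 1 of each spelling, together cover 89 to 72 bases before the start (RefSeq, GRCm38.p6, chr1:55087898-55088147, plus strand), printed in capitals.
Hspe1: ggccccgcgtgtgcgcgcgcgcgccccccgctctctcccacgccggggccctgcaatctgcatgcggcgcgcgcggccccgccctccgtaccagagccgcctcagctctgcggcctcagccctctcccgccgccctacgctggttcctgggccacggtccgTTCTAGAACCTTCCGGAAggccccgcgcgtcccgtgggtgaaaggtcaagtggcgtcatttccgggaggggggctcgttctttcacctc

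**Figure D4:**
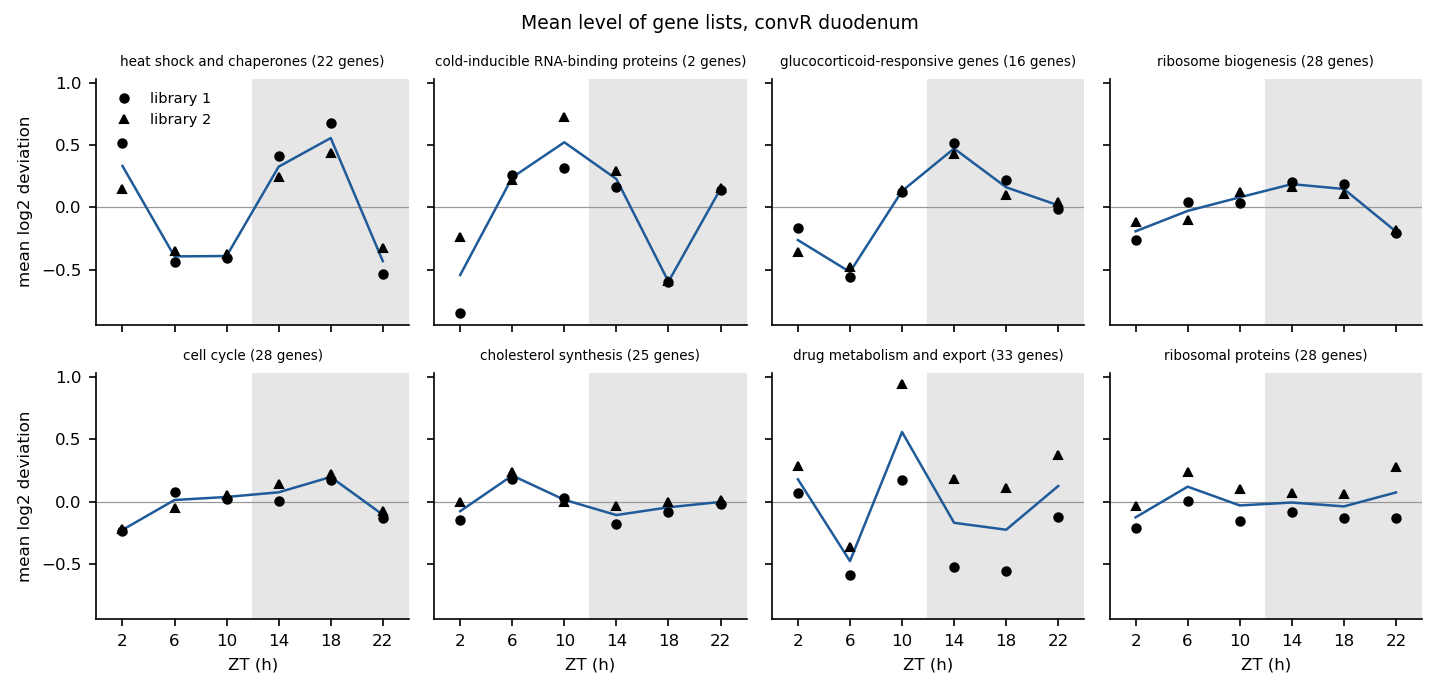
Mean log2 level of the members of 8 gene lists relative to each gene's mean over the day (vertical axis) against ZT in hours, with a point for each of the 2 libraries, a line through the means of the 2, and grey for ZT12 to ZT24. Heat shock genes are high at ZT2, ZT14 and ZT18 and the cold-inducible pair is low at ZT2 and ZT18, and the 2 libraries of the drug metabolism list lie far apart from ZT10 to ZT18.

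The unfolded protein response of the endoplasmic reticulum had 1 of 20 members at an unadjusted p under 0.05 by the cosine, 5 without ZT22 replicate 1, and 7 of 20 by the test of 6 times. Hspa5, the chaperone BiP, had 904 and 843 CPM at ZT2 and 337 and 478 CPM at ZT6. Herpud1, of protein disposal, was instead highest at ZT10 and ZT14, with 160 to 195 CPM. Other genes called by this test had single shapes of their own. Ypel2, of unknown molecular role, had 82.4 and 48.4 CPM at ZT18 and 80.6 and 54.3 CPM at ZT22, against 13.7 and 12.4 CPM at ZT10, and was kept in 10 of 19 alternatives. Tppp, a tubulin-binding protein, had 38.3 to 74.3 CPM at ZT2, ZT14 and ZT18 and 13.5 to 25.6 CPM at the other times, and was kept in 9 of 19. Utp14b, a copy of a small-subunit processome gene that overlaps Acsl3 on its strand, had 58.1 and 44.5 CPM at ZT18 and 15.9 to 31.5 CPM elsewhere, and was kept in 8 of 19.

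Among the 53 genes called for the 24 h terms, G6pc, glucose-6-phosphatase, which releases free glucose, had a fold of 4.75 and a peak at ZT20.2, with 16.9 to 37.9 CPM at ZT6 and ZT10 against 58.0 to 112 CPM at the other times. Paqr9, a membrane receptor of the progestin and adipoQ family, had 14.4 and 4.47 CPM at ZT22, against 0.765 and 0.637 CPM at ZT10, and a fold of 8.17. Dab1, an adaptor of reelin signalling, peaked at ZT0.0950 with a fold of 3.82, and Amd1, the decarboxylase that commits to polyamines, at ZT13.8 with a fold of 1.69. Arrb1, an arrestin that turns off receptors, measured 117 to 146 CPM at ZT10 and ZT14 and 217 to 299 CPM at the other times. These calls rested on the added 12 h terms, as each of the 5 had an adjusted p of 0.114 or more by the cosine alone.

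Cholesterol synthesis genes had most of their fitted peaks in the light in convR duodenum. By the cosine, 5 of 25 genes had an unadjusted p under 0.05, all with light-phase peaks. That count was 3 without ZT6 replicate 1 and 9 without ZT2 replicate 1. In all, 20 of 25 had their fitted peak in the light, a count that ran from 17 to 20 over the alternatives. Among all 18871 genes tested, 9326 had their fitted peak in the light. Sqle, squalene epoxidase, measured 35.6 and 44.6 CPM at ZT2, 61.5 and 67.9 at ZT6, 50.4 and 45.7 at ZT10, 40.9 and 46.5 at ZT14, 42.5 and 41.6 at ZT18, and 42.3 and 45.4 at ZT22. Both ZT6 libraries were above all 10 others (peak ZT7.33 ± 1.55 h, log2 peak-to-trough 0.44 ± 0.18, adjusted p = 0.444). Fdft1, squalene synthase, was likewise highest at ZT6, with 48.2 and 49.0 CPM against 26.6 to 38.7 CPM elsewhere. Markers of endothelium and fibroblasts, of which 5 of 14 had an unadjusted p under 0.05 with peaks from ZT1.35 to ZT5.65, moved in the same hours.

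Setting convR against GF duodenum asks whether rhythms differ with the flora. The difference of the 24 h cosine, convR minus GF, passed in 0 of 19242 genes (0.0%) with edgeR, in 0 with DESeq2 and in 0 with limma, with 783 genes (4.07%) at an unadjusted p under 0.05. The smallest p were those of Gkn1 and Tff1, stomach genes that were abundant in ZT14 replicate 1 of convR duodenum, then Ppara, Cwf19l2, Noxa1 and Ngef. Ppara, the nuclear receptor of fatty acid oxidation, had a log2 peak-to-trough of 0.58 ± 0.20 in convR and 1.34 ± 0.11 in GF duodenum, with peaks at ZT14.7 and ZT10.9 (edgeR, unadjusted p = 0.000167, adjusted p = 0.9995). Noxa1, an activator of NADPH oxidases, had a mean of 15.1 ± 5.76 CPM in convR duodenum and of 4.24 ± 0.769 CPM in GF duodenum (SD over 12 libraries each). Without ZT14 replicate 2 of convR duodenum 2 genes passed.

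By its own 24 h cosine, GF duodenum had 405 called genes of 18193 (2.23%), and its biological coefficient of variation around the cosine was 20.4% against 24.0% in convR duodenum. Of the 6 genes called in convR duodenum, 2 were called in GF duodenum, Bok (peak ZT23.0, adjusted p = 0.000522) and Aldh18a1 (peak ZT23.1, adjusted p = 0.000548), and 5 had an unadjusted p under 0.05. Of the 31 genes by the test of 6 times, 7 were called in GF duodenum, 22.6% of the 31 and 4.96% of the 141 (0.775% of genes tested) called there. Acsm5 and Abcb1a had fitted peaks at ZT9.95 and ZT10.8 in convR and at ZT10.1 and ZT11.3 in GF duodenum, and the difference test gave an unadjusted p = 0.525 and an unadjusted p = 0.350 in edgeR, which does not show that they were alike. Heat shock genes had 13 of 22 at an unadjusted p under 0.05 by the test of 6 times in GF duodenum, where the background is 14.4%, with another shape at ZT2 and ZT6. The mean log2 level of the list, relative to its daily mean, was 0.34 at ZT2 and -0.39 at ZT6 in convR duodenum. In GF duodenum it was -0.15 at ZT2 and 0.07 at ZT6. The 2 GF libraries of ZT6 were of opposite sign, 0.33 in replicate 1 and -0.18 in replicate 2, against -0.45 and -0.33 in convR duodenum. The difference between the groups was not tested.

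Between duodenum and ileum of convR mice, the difference of the cosine also passed in 0 of 19466 genes (0.0%) with edgeR, with 589 (3.03%) at an unadjusted p under 0.05, while DESeq2 called 8 and limma 0. With each pair of libraries of equal time and replicate number as a block, 2 genes passed. The p-values of this comparison come from the fit without that block, which takes the libraries as unpaired. Arsg had the smallest p, with 20.7 ± 9.44 CPM in duodenum and 5.35 ± 1.41 CPM in ileum (SD over 12 libraries each), a log2 peak-to-trough of 1.81 ± 0.21 in duodenum and 0.50 ± 0.30 in ileum (edgeR, unadjusted p = 2.23e-05, adjusted p = 0.435). Itpr1 had 1.08 ± 0.16 in duodenum and 0.23 ± 0.09 in ileum (edgeR, unadjusted p = 0.000136, adjusted p = 0.854), and S100a11, Pcp4l1, Tmc7 and Noxa1 followed. Leaving out ZT14 replicate 2 of duodenum or ZT22 replicate 1 of ileum gave 1 gene each. By its own cosine, ileum had 22 called genes of 18675 (0.118%), none of the 6 called in convR duodenum among them, of which 5 had an unadjusted p under 0.05 there. Of the 31 genes by the test of 6 times, 9 were called in ileum, 29.0% of the 31 and 60.0% of the 15 called there (0.0803% of 18675), and heat shock genes had 18 of 22 at an unadjusted p under 0.05, beside 8.37% of all genes.

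The cholesterol list had the largest share of members with a low p for the difference among the 31 lists in both comparisons, which share the convR duodenum libraries. Against GF duodenum, 10 of 25 members (40.0%) had an unadjusted p under 0.05, beside the background of 4.07%, and against ileum 10 of 25, beside 3.03%, none with an adjusted p under 0.05. Fitted peaks were in the light for 20 of 25 members in convR duodenum, for 4 of 25 in GF duodenum and for 1 of 25 in convR ileum. Ribosomal proteins, with 0 of 28 at an unadjusted p under 0.05 in either difference test, moved likewise. They had 20 light-phase peaks in convR against 3 in GF duodenum, and 18 in duodenum against 2 in ileum. The sugar list, 16 genes, went the other way, from 7 to 10 in GF duodenum and to 14 in ileum. The share of all genes with a light-phase peak in GF duodenum and in ileum is not given here. In convR duodenum the median log2 peak-to-trough of the cholesterol list was 0.30, against 0.25 in all genes tested. Many of its fitted peaks thus belong to shallow cosines. At ZT6 the mean log2 level of the cholesterol list, relative to its daily mean, was 0.21 in convR duodenum, -0.12 in GF duodenum and -0.14 in ileum. Mvd, mevalonate diphosphate decarboxylase, peaked at ZT5.97 ± 1.63 h in convR and ZT19.7 ± 0.66 h in GF duodenum (edgeR, unadjusted p = 0.000713, adjusted p = 0.9995). Sqle peaked at ZT7.25 ± 1.56 h in convR and ZT14.7 ± 1.73 h in GF duodenum (edgeR, unadjusted p = 0.0213, adjusted p = 0.9995).

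These counts rested on few libraries. Against GF duodenum the 10 became 6 without ZT6 replicate 1 of convR duodenum and 15 without ZT2 replicate 1 of convR duodenum. It was 5 when the 4 convR libraries that stand apart were left out together with ZT6 replicate 1 and both ZT22 libraries of GF duodenum. Against ileum the 10 became 4 without ZT6 replicate 2 of convR duodenum and 5 with scaling by library size alone. It was 12 with paired libraries as a block. It was 2 when the same 4 libraries and ZT6 replicate 2 of ileum were left out. For ribosome biogenesis, 2 of 28 in GF duodenum and 0 of 28 in ileum had an unadjusted p under 0.05 by their own cosine, beside 15.5% and 8.41% of all genes there, yet the difference had a p under 0.05 in 3 of 28 in each comparison. The plot of 3 lists in 3 groups shows these levels by library.

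**Figure D5:**
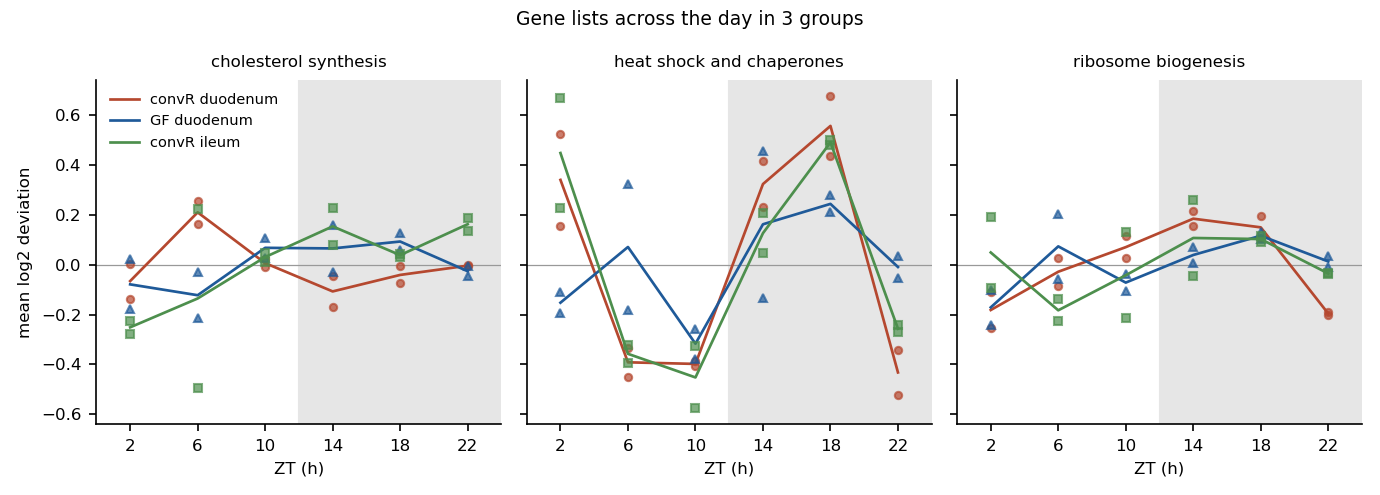
Mean log2 level of cholesterol synthesis, heat shock and ribosome biogenesis genes relative to the daily mean of each group (vertical axis) against ZT in hours, for convR duodenum (red), GF duodenum (blue) and convR ileum (green), with a point for each library and lines through the means of the 2. The cholesterol list is at 0.21 in convR duodenum at ZT6, against -0.12 in GF duodenum and -0.14 in ileum, where 1 of the 2 ileum libraries lies with the duodenum.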

How the data were processed

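Total RNA was sequenced in 47 libraries of duodenum and ileum. Per the labels' protocols, libraries were made from 250 ng with a stranded total RNA kit after ribosomal RNA removal, amplified for 12 cycles and read as paired ends of 100 nt. Per the submitters' processing notes, reads were aligned with STAR 2.4.0i to mm10. The deposited values are raw counts of reads per gene over exons. How reads were counted (program, annotation, strand) is not stated in the labels. Gene identifiers (38087) were matched to GENCODE M21 for 36308 genes, and promoters were taken from RefSeq GRCm38.p6.

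Library sizes were adjusted with TMM factors, and genes were filtered with edgeR's filter at a minimum of 10 counts, leaving 18871 genes. In R 4.3.3, edgeR 4.0.16 quasi-likelihood tests (robust) were run on the cosine and sine of 24 h, on 6 times as a factor, with 12 h terms, and on interactions with GF status or tissue over 24 libraries each. The Benjamini-Hochberg adjustment ran over every gene in a fit, and 0.05 was the threshold. Peak times and sizes were taken from least squares on log2(CPM + 0.5), which understates folds of low genes, with delta-method SE. DESeq2 1.42.0 and limma 3.58.1 were alternatives. The fits were also run on simulated counts drawn without admixed tissue or linked libraries, and the outcome is not given here.

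The rule for named genes took, outside the clock list, the 12 smallest p, up to 5 called genes of each 4 h peak window, up to 3 called members of each list, the 6 largest folds and the 6 smallest p of each interaction, at a mean of at least 2 CPM, passing over predicted genes and pseudogenes. Other genes were named after their values were seen. Some genes that these rules name are not reported here. The members, lists and tests were chosen with earlier results of these data known.

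The 2 libraries of a time differed by more than counting noise (chi-square per degree of freedom 45.0 to 128). Equal replicate numbers marked libraries that deviate together in duodenum and ileum of convR mice (correlation of residuals 0.243 to 0.515, over 0.1 at 6 of 6 times).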

Additional observations from a re-analysis of the deposited data

How the results depend on the processing

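None of the 6 genes called by the cosine shifted its fitted peak by more than 6 h in any alternative. Other results were not assessed for a reversal. The cosine count of 6 genes was 451 with DESeq2, 32 with no filter on low counts, 3 at a mean of at least 1 CPM, 1 without the 4 libraries that stand apart, 31 with the 6 times as a factor, 53 with 12 h terms, and 1 to 19 without 1 library. With a fold of 2 or more also required, these were 158, 25, 3, 1, 24, 41 and 1 to 17, and 3 with scaling by library size alone. The count of 31 by 6 times was 701 with DESeq2, 255 with no filter and 9 to 135 without 1 library, and 26 without the 4 libraries. Members of the gene lists, clock included, that passed the cosine numbered 3, but 1 with library size alone, 65 with DESeq2, 7 with no filter, 1 at a mean of at least 1 CPM, 1 without the 4 libraries, 16 with 6 times, 19 with 12 h terms and 1 to 6 without 1 library. The difference from GF duodenum had 0 to 2 genes without 1 library, and the difference from ileum 8 with DESeq2 and 0 to 1 without 1 library. The cause of these shifts was not tested. The share with a dark peak, 100% of the 6 beside 50.6% of all genes tested, was 62.1% among the genes DESeq2 called and 78.9% to 100% without 1 library.

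Within convR duodenum, deviations of equally numbered libraries correlated between 0.0327 and 0.471 across times, positive in all 15 pairs of times and over 0.1 in 11. The labels tie the numbers to no shared batch, and the main fits hold no term for them. Their p-values thus take libraries of equal number as unlinked, although these correlations were positive throughout, and calls changed when the number was fitted as a block. Between convR and GF duodenum the range was -0.0387 to 0.279. With the replicate block the cosine gave 10 genes, 7 with a fold of 2, 6 of the lists, and the 6 times 89. The difference from ileum, with each pair of equal time and replicate number as the block, gave 2 genes. At 2 libraries a time, intervals cover these samples only.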

Other observations

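Some antimicrobial and interferon genes were far higher in 1 library of ZT10 than in the other. Nos2, the inducible nitric oxide synthase, measured 731 CPM in ZT10 replicate 1, 137 CPM in ZT6 replicate 1 and 2.28 to 39.1 CPM in the other 10 libraries. Duoxa2, the maturation factor of a hydrogen peroxide producing oxidase, measured 196 CPM in ZT10 replicate 1 and 1.22 to 25.1 CPM elsewhere, and Cxcl10, a chemokine induced by interferon, 31.2 CPM against 2.82 to 9.07 CPM. These genes were chosen after their values were seen. The mean log2 level of the interferon response list, relative to each gene's mean, was 1.11 in ZT10 replicate 1 and -0.13 in ZT10 replicate 2. Of 28 interferon response genes, 7 had an unadjusted p under 0.05 by the cosine (beside 10.5% of all genes), 11 without ZT6 replicate 1 and 4 without ZT22 replicate 1.

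Pdk4 and Angptl4, genes of fasting metabolism, were low at ZT6. Pdk4, the kinase that spares glucose by turning off pyruvate oxidation, measured 5.60 and 7.67 CPM at ZT6 and 60.6 and 44.5 CPM at ZT14, with 7.12 and 32.4 CPM at ZT10 (fold 5.94, peak ZT18.5, adjusted p = 0.387). Angptl4, an inhibitor of lipoprotein lipase, measured 3.79 and 8.16 CPM at ZT6 and 40.8 and 31.7 CPM at ZT2 (adjusted p = 0.485). Neither passed, and of 23 genes of fatty acid oxidation and ketogenesis 3 had an unadjusted p under 0.05, a share near the 10.5% of all genes, and 9 did without ZT10 replicate 2.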
